A study of Homo sapiens with 52 samples.

Results

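The genes described here are the 4 VEGF ligand genes VEGFA, VEGFB, VEGFC and PGF and the 3 VEGF receptor genes FLT1, KDR and FLT4. They were chosen by gene name, and all 7 were found among the 78894 genes of the deposited tables. For VEGFA, its 26 annotated transcripts were followed as well. After the filter on low counts, 4 of the 7 genes were tested in SUM159PT (the ligands), and 6 in each of the other two lines. FLT4 was tested in no cell line.

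The samples are poly(A)-selected RNA from 52 cultures of 3 established triple-negative breast cancer cell lines of the claudin-low class, SUM159PT (17 samples), MDA-MB-231 (18) and HS578T (17), in 18 groups. In each cell line the siRNA groups were siNT (a non-targeting control), siNRP1#3 and siNRP1#5, each given at 20 nM by reverse transfection and harvested after 72 h. The shRNA groups were shNT, shNRP1#3 and shNRP1#5, delivered by lentivirus to cells that were then selected with puromycin. After selection these cells were seeded again and harvested after a shorter time than the siRNA groups. Reagents numbered #3 were designed against the transmembrane form of NRP1 alone, and those numbered #5 against both the transmembrane and the soluble form. The siRNA and the shRNA numbered #5 share one target sequence. Of the groups, 16 had 3 samples, and SUM159PT siNRP1#5 and HS578T shNRP1#3 had 2. The shRNA replicates were consecutive passages of one transduced population, so that their spread is not that of independent transductions.

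VEGF ligands are secreted dimers that act on receptor tyrosine kinases best known from blood and lymphatic endothelium. VEGFA binds FLT1 (VEGFR1) and KDR (VEGFR2), VEGFB and PGF bind FLT1 and not KDR, and VEGFC acts on FLT4 (VEGFR3) and, once processed, on KDR. NRP1, the gene targeted here, encodes a co-receptor that binds the longer forms of VEGFA and associates with KDR. Tumour cells are a common source of the ligands, and VEGFA is a textbook target of the hypoxia-inducible factors.

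On GRCh38, VEGFA lies at chr6:43770184-43786487 on the plus strand and VEGFB at chr11:64234584-64239264, also on the plus strand. VEGFC (chr4:176683538-176792922), PGF (chr14:74941834-74955626), FLT1 (chr13:28300346-28495145), KDR (chr4:55078481-55125595) and FLT4 (chr5:180601506-180649624) lie on the minus strand. VEGFA is spliced into forms that differ in the coding exons 6a and 7, which hold the heparin-binding part of the protein. These exons are printed because the VEGFA transcripts are grouped by them further on. Exon 6a is at chr6:43780732-43780803 (72 bases, 47.2% GC) and exon 7 at chr6:43781956-43782087 (132 bases, 50% GC).
VEGFA exon 6a: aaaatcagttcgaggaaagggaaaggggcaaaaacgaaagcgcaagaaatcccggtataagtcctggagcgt
VEGFA exon 7: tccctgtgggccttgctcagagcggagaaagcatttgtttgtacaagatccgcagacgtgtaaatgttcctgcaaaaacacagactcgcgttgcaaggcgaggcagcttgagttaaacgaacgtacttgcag
Of the 26 transcripts, 8 hold exon 7 without exon 6a (as VEGF165 does), 6 hold both (as VEGF189 does), 5 are coding and hold neither (as in VEGF121), 1 holds exon 6a without exon 7, and 6 are not protein coding. Transcripts of a class differ elsewhere, so that a class is not 1 isoform. With both exons, coding lengths ran from 627 (VEGFA-218) to 1236 bases (VEGFA-203).

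PGF and VEGFC were the ligands with most calls after NRP1 knockdown, and the 250 bases upstream of their start sites (RefSeq, GRCh38.p14, minus strand) are printed for that reason. Capitals mark the core of a hypoxia response element, ACGTG or GCGTG, searched on both strands, so that CACGC is GCGTG on the other strand.
PGF, chr14:74955765-74956014: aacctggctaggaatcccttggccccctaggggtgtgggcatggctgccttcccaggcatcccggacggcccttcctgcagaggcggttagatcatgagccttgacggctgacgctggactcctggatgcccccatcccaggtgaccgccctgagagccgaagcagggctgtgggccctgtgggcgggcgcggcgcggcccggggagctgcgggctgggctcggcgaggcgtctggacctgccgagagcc
VEGFC, chr4:176792923-176793172: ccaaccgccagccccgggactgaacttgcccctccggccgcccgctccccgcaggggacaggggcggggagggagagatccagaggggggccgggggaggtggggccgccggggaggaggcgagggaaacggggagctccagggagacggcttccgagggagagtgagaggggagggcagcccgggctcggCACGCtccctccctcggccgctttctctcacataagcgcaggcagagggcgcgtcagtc
The VEGFC window held 1 match, 59 bases before the start (position -59), and the printed PGF window held none. VEGFB (position -61), FLT1 (position -206) and a further PGF start site (position -162) held 1 match each, and KDR held none. Among all 35116 windows of this length, 43.2% held a match, so that a match is common and describes only these letters. 5 of the 7 genes had an entry.

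Expected counts per sample summed to between 25310443 and 72003442, with a median of 44804505. NRP1 itself fell in 11 of the 12 knockdown comparisons by edgeR's quasi-likelihood test (Benjamini-Hochberg adjusted over all genes tested, threshold 0.05, used for every gene-level call). In SUM159PT siNRP1#5, NRP1 was at 1.5 and 2.98 TPM against 68, 35.7 and 74.5 TPM in siNT. The exception was HS578T shNRP1#3, where NRP1 differed by -1.59 on the log2 scale (SE 0.29, adjusted p = 0.069). In MDA-MB-231 siNRP1#3 the counts fell by 0.70 on the log2 scale (SE 0.15, adjusted p = 0.00173), while the TPM of 24.8, 29.5 and 31.3 overlapped those of siNT (25.6, 29.3 and 31.6). The 3 HS578T siNRP1#5 samples held marker genes of MDA-MB-231 at between 12.9 and 23% of the level in that cell line (median over 60 genes), against 0.651 to 2.19% in HS578T siNT and 2.43 to 7.13% in siNRP1#3. Markers of SUM159PT were at 1.48 to 8.79% in the same 3 samples. A mix-up of cells, carry-over of RNA and misassigned reads cannot be told apart in these values. Whether siNRP1#5 itself raised the marker genes in HS578T was not tested. Values given below with counts of the other cell lines taken off assume that it did not. The markers were chosen with a low limit of 0.5 CPM in the cell line read and a high limit of 20 CPM in the other. A low share in the HS578T controls thus follows in part from this choice. No limit was set on the third cell line, so that a marker of SUM159PT can also be a gene of MDA-MB-231. Shares of both in a sample thus do not show that RNA of both was present. The counts taken off rest on the markers that were also at 0.5 CPM or less in the third cell line. At the markers' share given above, the NRP1 level of MDA-MB-231 siNT would bring 17.1 CPM to replicate 1, more than the 10.7 CPM observed. The NRP1 level of MDA-MB-231 siNRP1#5 would bring 0.568 CPM. One MDA-MB-231 shNRP1#3 sample held markers of SUM159PT at 2.39% and of HS578T at 2.12%, again without a limit on the third cell line.

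The markers CLDN4 and CLDN7, which are low in claudin-low tumours, were at 62.6 to 226 and 10.4 to 61.5 TPM in MDA-MB-231. CLDN3 was at 2.87 to 13.4 and CDH1 at 0.02 to 3.33 TPM there. Together these 4 markers, fixed as low in this class, summed to 78.4 to 296 TPM in MDA-MB-231. The sum was 0.49 to 29.4 TPM in SUM159PT and 0.34 to 34.5 TPM in HS578T. The 4 fixed as high (VIM, ZEB1, SNAI1 and ITGA6) summed to 1350 TPM or more in every sample, of which VIM gave at least 1310 TPM. That sum thus describes VIM. In SUM159PT, MDA-MB-231 and HS578T the medians were 4.56, 13 and 6.07 TPM for ZEB1. They were 22, 7.42 and 4.02 TPM for SNAI1 and 39.7, 97.1 and 8.82 TPM for ITGA6. Since the receptors are endothelial genes, 10 endothelial markers were read too. They summed to 90.3 to 209 TPM in MDA-MB-231, of which ESAM gave 57.2 to 169 and ROBO4 17.7 to 76.8 TPM, and to at most 19.2 TPM in SUM159PT and 28.4 TPM in HS578T. Of the other 8 in MDA-MB-231, TIE1 was at 0.26 to 10.2, CDH5 at 0.08 to 3.87, PECAM1 at 0.1 to 0.67, VWF at 0.06 to 0.31 and TEK at 0.02 to 0.14 TPM. ERG reached 0.19 TPM (at 0 in 6 of 18 samples), EMCN 0.12 TPM (at 0 in 16) and CLDN5 0.02 TPM (at 0 in 17).

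VEGFA and VEGFB had the highest mean levels of the ligands over the controls of each cell line, and the receptors were low. In HS578T shNT alone, PGF (80.5 TPM) was level with VEGFA (79.7 TPM). TPM, which is scaled for transcript length, is used for levels. Over the 6 control samples of a cell line (siNT and shNT), VEGFA was at 153 ± 33.6 TPM for SUM159PT, 83.9 ± 21.9 for MDA-MB-231 and 93.5 ± 17.8 for HS578T (mean ± SD, n = 6). VEGFB, in the same order of cell lines, was at 156 ± 37.9, 115 ± 11.8 and 196 ± 24.7 TPM. VEGFC and PGF were lower, VEGFC at 25.8 ± 8.68, 15.2 ± 1.29 and 10.4 ± 2.45 TPM and PGF at 15.7 ± 9.24, 27.3 ± 11.3 and 57.6 ± 25.2 TPM. The plot of ligand TPM by sample shows these levels with each treatment.

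**Figure D1:**
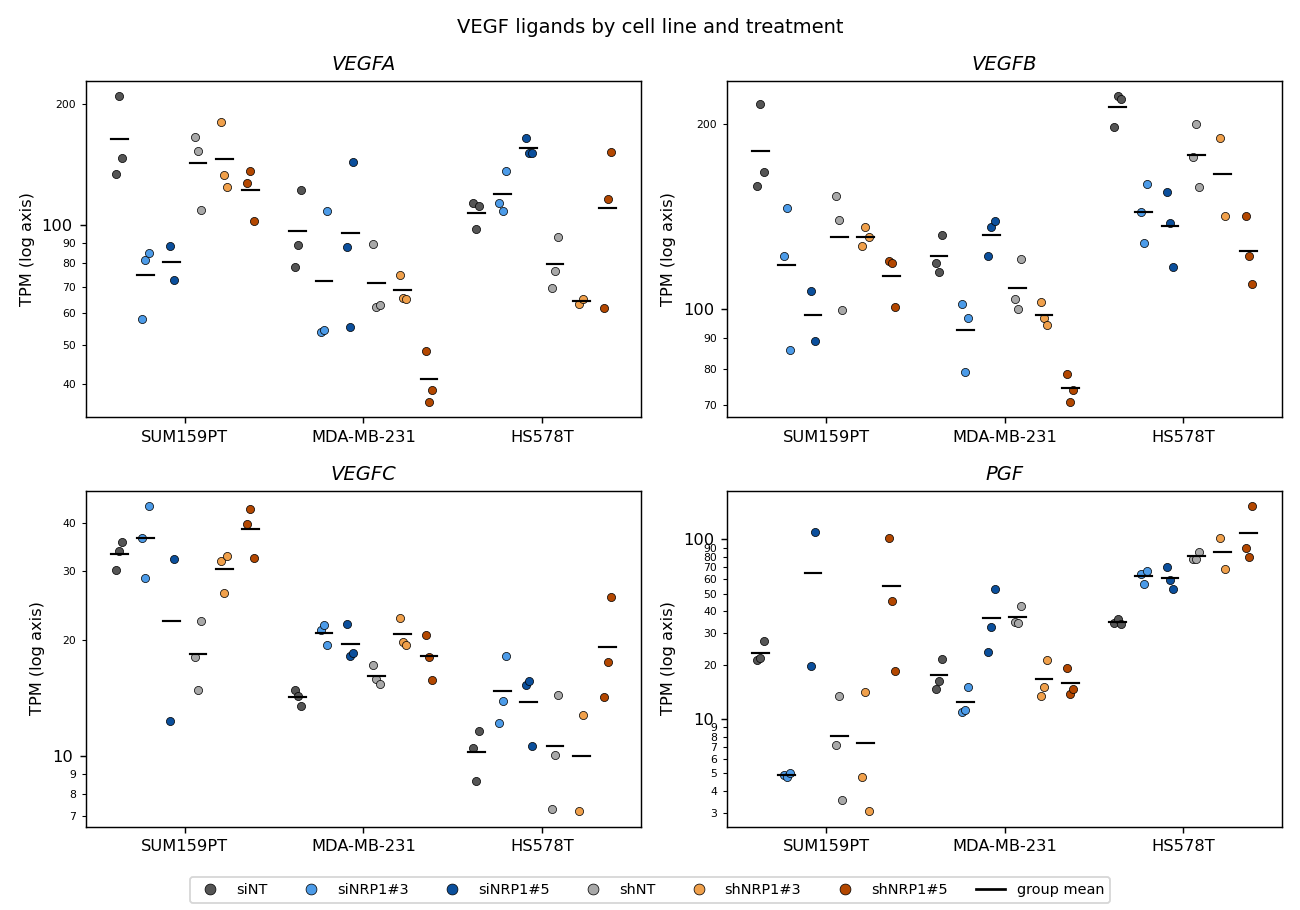
TPM of VEGFA, VEGFB, VEGFC and PGF in each sample (points, log axis) by cell line and treatment, with the group mean as a bar; groups hold 3 samples, or 2 for SUM159PT siNRP1#5 and HS578T shNRP1#3. PGF spans the widest range, from 3.07 to 154 TPM, and VEGFA in SUM159PT is lower in both NRP1 siRNA groups than in siNT.

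Between cell lines, with siNT and shNT weighted equally in one edgeR model of all 52 samples, most members differed, as did most genes: 59.4% of the genes tested for SUM159PT against MDA-MB-231, 70.2% for HS578T against MDA-MB-231 and 63.5% for HS578T against SUM159PT. VEGFA counts were higher in SUM159PT than in MDA-MB-231 by 1.44 on the log2 scale (SE 0.21, adjusted p = 1.04e-07), and higher in HS578T than in MDA-MB-231 by 0.98 (SE 0.20, adjusted p = 5.43e-05). HS578T differed from SUM159PT in VEGFA by -0.46 (SE 0.20, adjusted p = 0.044), and this call was lost with RLE scaling (-0.39, adjusted p = 0.104), with DESeq2 (-0.39, adjusted p = 0.106), with siNT alone (-0.38, adjusted p = 0.274) or shNT alone (-0.55, adjusted p = 0.107), without replicate 1 of every group (-0.47, adjusted p = 0.142) and without replicate 2 (-0.20, adjusted p = 0.526). VEGFB was highest in HS578T, by 1.48 over MDA-MB-231 (SE 0.16) and by 0.73 over SUM159PT (SE 0.15), and SUM159PT was above MDA-MB-231 by 0.75 (SE 0.15, all 3 called).

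VEGFC counts were higher in SUM159PT than in MDA-MB-231 by 1.09 (SE 0.15, adjusted p = 6.76e-08) and HS578T was below SUM159PT, with a log2 difference of -0.88 (SE 0.15, adjusted p = 3.9e-06). The latter was -1.39 with siNT alone, where it was called, and did not pass with shNT alone (-0.38, adjusted p = 0.141). PGF was higher in HS578T than in MDA-MB-231 by 1.82 (SE 0.34, adjusted p = 1.27e-05) and than in SUM159PT by 2.35 (SE 0.35, adjusted p = 2.89e-07). With siNT alone the difference from SUM159PT was 0.91 (adjusted p = 0.106). PGF in SUM159PT against MDA-MB-231 turned with the control, at 0.79 with siNT alone (adjusted p = 0.165) and -1.85 with shNT alone (adjusted p = 0.0018). With both controls it was -0.53 (SE 0.33, adjusted p = 0.175), and -0.87 without replicate 2 of every group (adjusted p = 0.0478). The order of SUM159PT and MDA-MB-231 in PGF thus differed between the siRNA and the shRNA controls.

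Among the receptors, KDR was highest in MDA-MB-231. It was at 1.44 ± 1.17 TPM there over the 6 control samples, with 1791 expected counts in all, against 0.09 ± 0.0632 TPM (100 counts) in HS578T and 0.02 ± 0.019 TPM (15 counts, 2 samples at 0) in SUM159PT. HS578T was below MDA-MB-231 by a log2 difference of -2.77 (SE 0.40, adjusted p = 8.77e-08). The size depended on the control, with a KDR difference of -1.8 for siNT alone (SE 0.57, adjusted p = 0.00667; 0.397 against 1.41 CPM) and of -3.73 for shNT alone (SE 0.57, adjusted p = 4.28e-07; 0.608 against 8.37 CPM). FLT1 had 0 counts in all 6 SUM159PT control samples. Its mean CPM was at least 8.84-fold higher in MDA-MB-231 and at least 8.53-fold higher in HS578T, taking 3 counts per library as the limit that 0 counts allow. That limit was scaled to the library total without TMM, so that these folds are approximate. The HS578T value rests largely on shNT replicate 1, at 1.66 CPM against 0.111 to 0.525 CPM in the other 5 samples, and without it (a value added after seeing the data) FLT1 was at least 4.94-fold higher. FLT1 in HS578T and MDA-MB-231 differed by 0.18 on the log2 scale (SE 0.50, adjusted p = 0.771). FLT4 had 0 counts in 24 of the 52 samples and at most 13 counts in any, with a highest level of 0.16 TPM.

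**Figure D2:**
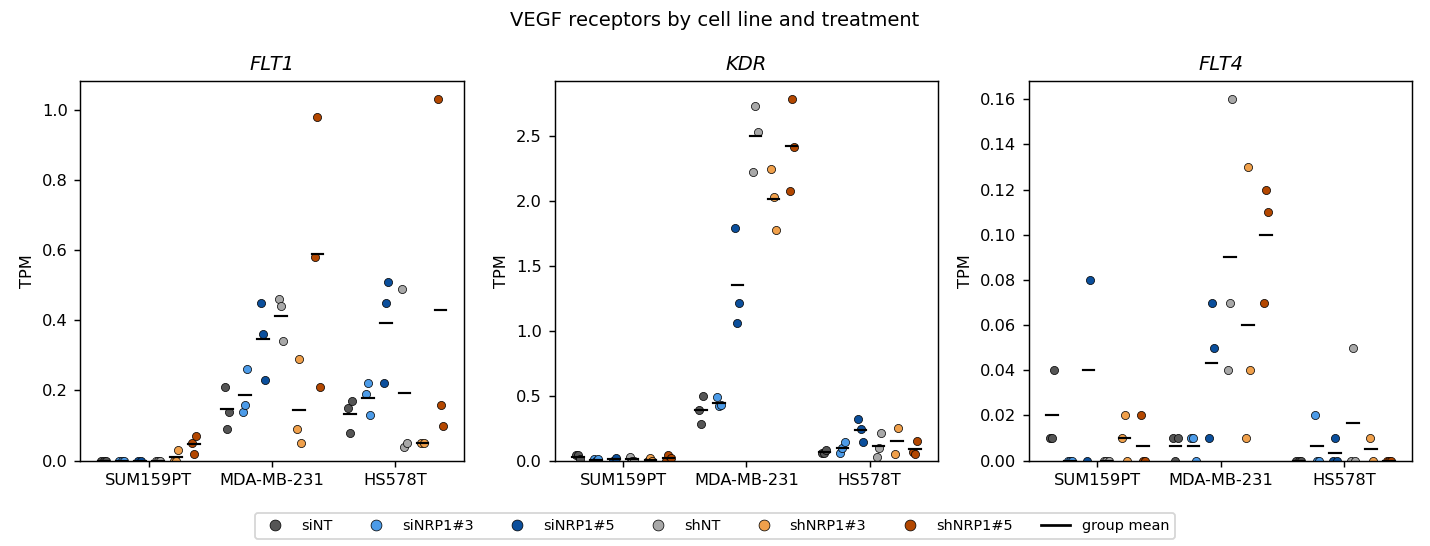
TPM of FLT1, KDR and FLT4 in each sample (points, linear axis starting at 0, a different range in each panel) by cell line and treatment, with the group mean as a bar. KDR in MDA-MB-231 is at 0.28 to 0.50 TPM in siNT and siNRP1#3, at 1.06 to 1.79 TPM in siNRP1#5 and at 1.77 to 2.78 TPM in the 3 shRNA groups.

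The 18 groups were ordered by mean TPM. Sample ranges of neighbours overlapped in 15 of 17 pairs for VEGFA, 16 for VEGFB, 17 for VEGFC, 16 for PGF, 16 for FLT1, 15 for KDR and 17 for FLT4. Neighbours in such an order have close means by construction, and the share over all genes was not computed. These counts thus do not show that the groups are alike. The ends of the order were far apart for PGF, from SUM159PT siNRP1#3 to HS578T shNRP1#5 (22.1-fold between the means), and less so for VEGFB (2.86-fold), VEGFC (3.85-fold) and VEGFA (3.98-fold).

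Over the 12 comparisons of an NRP1 reagent with its own control, 16 of 64 tests of members passed (9 higher, 7 lower), beside 11.3% of the tests over all genes. MDA-MB-231 held 10 of these calls, SUM159PT 5 and HS578T 1. In 4 comparisons edgeR called no member: SUM159PT shNRP1#3 (1 at an unadjusted p under 0.05), HS578T siNRP1#3 (2), HS578T shNRP1#3 (1) and HS578T shNRP1#5 (2). DESeq2 called none there either, and limma on TPM called 1, PGF in HS578T siNRP1#3. PGF was called in 6 of 12 comparisons, VEGFC in 3, VEGFA and VEGFB in 2 each, FLT1 in 2 of 8 and KDR in 1 of 8. In several comparisons calls were common among all genes: in MDA-MB-231 25.7% of the genes tested passed for siNRP1#3, 29.4% for siNRP1#5, 3.65% for shNRP1#3 and 20.7% for shNRP1#5. In SUM159PT these were 8.66%, 17.9%, 1.4% and 5.94%, and in HS578T 4.65%, 18.7%, 0.0356% and 0.946%. The 3 samples of a control enter 2 comparisons each.

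**Figure D3:**
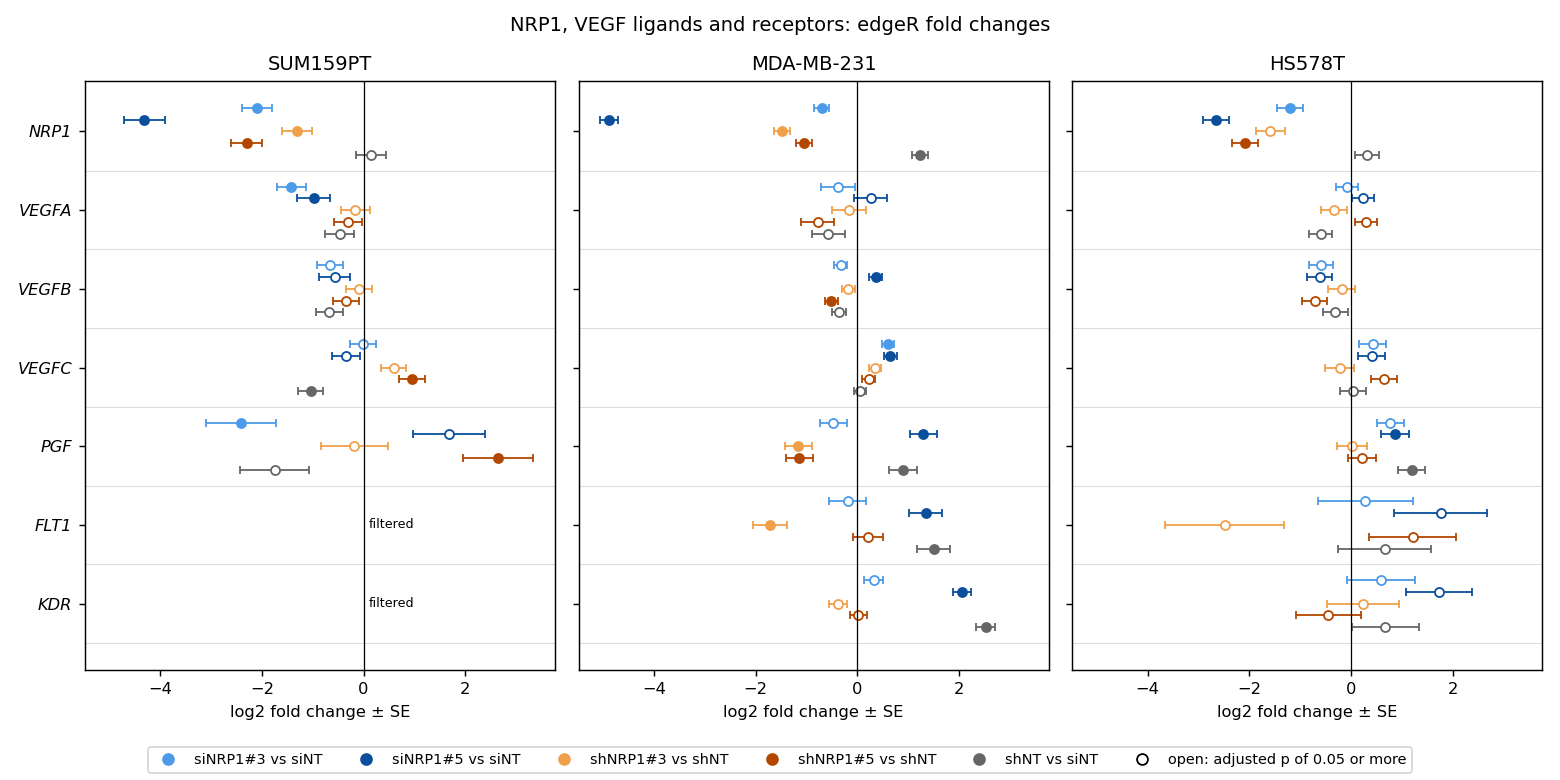
Log2 fold changes of NRP1, the ligands, FLT1 and KDR from edgeR (points, bars are ± SE) for each reagent against its control and for shNT against siNT, in 3 panels by cell line; filled points passed an adjusted p of 0.05. PGF points lie on both sides of 0 in SUM159PT and MDA-MB-231, and FLT1 and KDR were filtered in SUM159PT.

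VEGFA fell in SUM159PT with both NRP1 siRNAs. It was at 134, 209 and 147 TPM in siNT, at 58.2, 81.4 and 84.9 TPM in siNRP1#3 and at 88.4 and 72.7 TPM in siNRP1#5. Every NRP1 siRNA sample was below every siNT sample. In RNA of whole cultures, fewer expressing cells and less RNA per cell cannot be told apart. VEGFA counts fell by 1.42 on the log2 scale with siNRP1#3, to 37.3% of siNT (SE 0.28, adjusted p = 0.00527), a call that held under all 14 alternatives (log2 differences of -1.59 to -1.06). With siNRP1#5 they fell by 0.98, to 50.7% (SE 0.32, adjusted p = 0.0423). The siNRP1#5 call was lost without siNT replicate 2, the sample with the highest VEGFA (-0.62, adjusted p = 0.148), without siNRP1#5 replicate 3 (-0.76, adjusted p = 0.216) and when only these 2 groups were fitted (-1, adjusted p = 0.21).

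With the shRNAs, VEGFA in SUM159PT was at 165, 153 and 109 TPM in shNT, 180, 133 and 124 TPM in shNRP1#3 and 127, 136 and 102 TPM in shNRP1#5. These ranges overlapped, and the log2 differences were -0.16 (SE 0.28) and -0.31 (SE 0.28), neither called. In MDA-MB-231 the lowest VEGFA of all groups was in shNRP1#5, at 48.3, 36.1 and 38.7 TPM against 89.4, 62.4 and 63.0 TPM in shNT. Those samples did not overlap, yet the difference of -0.78 (SE 0.33) did not pass (adjusted p = 0.107), and passed when only these 2 groups were fitted (-0.80, adjusted p = 0.00236). In HS578T no VEGFA difference passed, and siNRP1#5 was at 164, 151 and 151 TPM against 113, 97.4 and 111 TPM in siNT, while the counts differed by 0.23 (SE 0.22, adjusted p = 0.494). TPM and counts thus gave unlike sizes there, with ranges that did not overlap in TPM.

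VEGFB, a ligand of FLT1, was called in both directions in MDA-MB-231. In MDA-MB-231 shNRP1#5 it was at 78.5, 70.8 and 74.1 TPM against 104, 100 and 121 TPM in shNT, and the counts fell by 0.51 on the log2 scale (SE 0.13, adjusted p = 0.00824). All 3 knockdown samples were below shNT, though without shNRP1#5 replicate 2 the difference was -0.46 with adjusted p = 0.0504. With siNRP1#5 in the same cell line VEGFB counts rose by 0.36 (SE 0.13, adjusted p = 0.0366), but the TPM overlapped (122, 136 and 139 against 119, 115 and 132 in siNT) and limma on log2 TPM gave 0.12 (adjusted p = 0.465). That call was also lost without siNRP1#5 replicate 2 (0.30, adjusted p = 0.127), siNRP1#5 replicate 3 (0.28, adjusted p = 0.117), siNT replicate 1 (0.33, adjusted p = 0.119) and siNT replicate 2 (0.34, adjusted p = 0.0983). With siNRP1#3 VEGFB was at 102, 79.2 and 96.7 TPM, below siNT without overlap. The counts differed by -0.33 (SE 0.13, adjusted p = 0.065), and limma on log2 TPM called the difference (-0.40, adjusted p = 0.0134).

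In SUM159PT, VEGFB was at 122, 146 and 86.0 TPM in siNRP1#3 and 159, 216 and 167 TPM in siNT. The groups did not overlap and the log2 difference was -0.66 (SE 0.26, adjusted p = 0.131). Same-numbered samples of this comparison deviated together, and blocking on that number gave -0.68 (adjusted p = 0.0364). SUM159PT siNRP1#5, at 107 and 88.8 TPM, also lay below siNT without overlap. Its difference of -0.57 (SE 0.30, adjusted p = 0.194) was called by limma on log2 TPM (-0.88, adjusted p = 0.0212).

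In HS578T the VEGFB log2 differences were -0.59 (siNRP1#3), -0.62 (siNRP1#5), -0.19 (shNRP1#3) and -0.72 (shNRP1#5), none of which edgeR called. The siNRP1#3 samples were at 144, 128 and 160 TPM and the siNRP1#5 samples at 155, 138 and 117 TPM, against 198, 222 and 220 TPM in siNT. The shNRP1#5 samples were at 142, 122 and 110 TPM against 177, 200 and 158 TPM in shNT. These 3 comparisons did not overlap, while shNRP1#3 did. The siNRP1#5 difference had an adjusted p of 0.0823, and was called by limma on log2 TPM (-0.65, adjusted p = 0.0194) and when only these 2 groups were fitted (-0.63, adjusted p = 0.0419). The siNRP1#5 samples are those with MDA-MB-231 markers. With the counts of the other cell lines taken off, edgeR gave a smaller VEGFB difference. It was -0.42 (adjusted p = 0.28) at their siNT level and -0.46 (adjusted p = 0.247) at that of the same treatment.

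PGF, a ligand of FLT1 best known from the placenta, moved most and in opposite directions. In SUM159PT it was at 21.2, 22.0 and 27.2 TPM in siNT and at 4.86, 4.74 and 5.03 TPM in siNRP1#3. The siNRP1#3 samples were all below siNT, and counts fell by 2.41 on the log2 scale (SE 0.69, adjusted p = 0.0399). That adjusted p rose to between 0.063 and 0.128 when any 1 of the 6 samples was left out, with log2 differences of -2.52 to -2.36.

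In SUM159PT siNRP1#5 the samples were 19.8 and 110 TPM. One lay under the siNT samples and the other far above, with a log2 difference of 1.68 (SE 0.71, adjusted p = 0.114). In shNRP1#5 they were at 102, 45.6 and 18.6 TPM against 7.17, 13.4 and 3.55 TPM in shNT. No sample overlapped and counts rose by 2.65 (SE 0.69, adjusted p = 0.032). This call was lost without shNRP1#5 replicate 1 (1.97, adjusted p = 0.147), shNRP1#5 replicate 2 (2.74, adjusted p = 0.0747), shNT replicate 1 (2.59, adjusted p = 0.124) or shNT replicate 3 (2.31, adjusted p = 0.124).

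In MDA-MB-231, PGF was at 14.8, 16.2 and 21.7 TPM in siNT and 23.7, 32.7 and 53.1 TPM in siNRP1#5. Every siNRP1#5 sample was higher and counts rose by 1.3 (SE 0.27, adjusted p = 0.0013), a call that held under all 14 alternatives. The shRNAs went the other way. Against 34.7, 34.2 and 42.4 TPM in shNT, shNRP1#3 was at 13.5, 15.1 and 21.3 TPM and shNRP1#5 at 19.2, 13.8 and 14.8 TPM, all below shNT. Counts fell by 1.16 (SE 0.27, adjusted p = 0.0198) and by 1.14 (SE 0.27, adjusted p = 0.00595), and the knockdown levels were near those of siNT. The shNRP1#3 call was lost without shNRP1#3 replicate 1 (-1.03, adjusted p = 0.0952), shNRP1#3 replicate 2 (-1.09, adjusted p = 0.0845), shNT replicate 2 (-1.2, adjusted p = 0.0533) or shNT replicate 3 (-1.08, adjusted p = 0.0826).

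In HS578T, PGF was at 34.1, 36.1 and 34.0 TPM in siNT, 64.2, 56.3 and 67.1 TPM in siNRP1#3 and 70.3, 59.8 and 52.8 TPM in siNRP1#5. Both siRNA groups lay above siNT without overlap. The siNRP1#5 difference passed, with a rise of 0.86 on the log2 scale (SE 0.27, adjusted p = 0.0344), and the siNRP1#3 difference of 0.77 (SE 0.27) did not (adjusted p = 0.115). The siNRP1#5 call was lost without siNRP1#5 replicate 1 (0.67, adjusted p = 0.13) or replicate 3 (0.90, adjusted p = 0.0642) and without siNT replicate 1 (0.78, adjusted p = 0.0966), replicate 2 (0.92, adjusted p = 0.0736) or replicate 3 (0.88, adjusted p = 0.0783). The MDA-MB-231 markers' share would bring 4.26, 3.29 and 2.39 CPM of PGF to those samples at the level of MDA-MB-231 siNT, and 10.4, 8.06 and 5.84 CPM at that of siNRP1#5, of the 127, 88.8 and 102 CPM observed. With the counts of the other cell lines taken off, the PGF rise was 1.19 (SE 0.28, adjusted p = 0.0124) at their siNT level and 1.1 (SE 0.29, adjusted p = 0.0213) at that of the same treatment. All 96 tests of members kept their side of the threshold in both, and 95 and 94 kept their direction.

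VEGFC, the lymphatic ligand, rose where it was called. In MDA-MB-231 it was at 14.8, 14.3 and 13.5 TPM in siNT, 21.2, 21.8 and 19.4 TPM in siNRP1#3 and 21.9, 18.1 and 18.5 TPM in siNRP1#5. All NRP1 siRNA samples were above all siNT samples. Counts rose by 0.61 (SE 0.12, adjusted p = 0.00125) and by 0.65 (SE 0.12, adjusted p = 0.000551), and both calls held under all 14 alternatives. In SUM159PT shNRP1#5 VEGFC was at 39.7, 43.4 and 32.5 TPM against 18, 14.8 and 22.4 TPM in shNT. The groups did not overlap and counts rose by 0.95 (SE 0.25, adjusted p = 0.0303). This call was lost without shNRP1#5 replicate 1 (0.98, adjusted p = 0.068), shNRP1#5 replicate 2 (0.82, adjusted p = 0.144), shNT replicate 1 (0.96, adjusted p = 0.105) or shNT replicate 2 (0.79, adjusted p = 0.138).

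In SUM159PT siNRP1#5 the VEGFC samples differed from each other, at 12.3 and 32.3 TPM, and the log2 difference was -0.34 (SE 0.28, adjusted p = 0.413). Without replicate 3 it was -0.97 (adjusted p = 0.036). Replicate 2 of that group had the lower VEGFC and the lower PGF, and replicate 3 the higher of both. With shNRP1#3 VEGFC was at 32, 26.4 and 32.8 TPM, again above shNT without overlap, but the difference of 0.59 (SE 0.25) did not pass (adjusted p = 0.325). In HS578T VEGFC differences ranged from -0.23 to 0.65, and none passed.

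KDR, the main signalling receptor for VEGFA, rose in MDA-MB-231 with siNRP1#5. It was at 0.39, 0.28 and 0.50 TPM in siNT and at 1.79, 1.06 and 1.21 TPM in siNRP1#5, without overlap. Counts rose by 2.06 on the log2 scale, to 4.17-fold (SE 0.18, adjusted p = 1.32e-07), and this held under all 14 alternatives. With siNRP1#3 KDR was at 0.49, 0.42 and 0.43 TPM (log2 difference 0.32, SE 0.19, adjusted p = 0.228). KDR was at 2.22, 2.73 and 2.53 TPM in shNT, and shNRP1#3 and shNRP1#5 overlapped it (log2 differences -0.38 and 0.02, neither called). In HS578T siNRP1#5 KDR was at 0.32, 0.24 and 0.14 TPM against 0.06, 0.06 and 0.08 TPM in siNT, a difference of 1.72 (SE 0.65, adjusted p = 0.0769). The MDA-MB-231 markers' share there would bring 0.323, 0.25 and 0.181 CPM of the 1.58, 1.26 and 1.01 CPM observed at the KDR level of MDA-MB-231 siNT, 1.33, 1.03 and 0.749 CPM at that of siNRP1#5, and 1.92, 1.49 and 1.08 CPM at that of shNT, which is above what was observed in all 3 samples. With those counts taken off, the KDR difference was 1.82 (SE 0.68, adjusted p = 0.083) at the siNT level and -0.12 (SE 0.70, adjusted p = 0.93) at that of siNRP1#5, so that its direction depended on the level assumed.

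FLT1, which binds VEGFA, VEGFB and PGF, was low wherever it was read. In MDA-MB-231 it was at 0.21, 0.09 and 0.14 TPM in siNT and 0.45, 0.36 and 0.23 TPM in siNRP1#5, all higher. Counts rose by 1.34 (SE 0.33, adjusted p = 0.00489). Against 0.46, 0.44 and 0.34 TPM in shNT, shNRP1#3 was at 0.09, 0.29 and 0.05 TPM, all lower. Counts fell by 1.72 (SE 0.33, adjusted p = 0.00452), and limma on log2 TPM with a pseudocount of 0.1 called neither (0.85, adjusted p = 0.129, and -1.19, adjusted p = 0.148). When only these 2 groups were fitted, the siNRP1#5 rise had an adjusted p of 0.0525. At the highest FLT1 had 90 expected counts in an MDA-MB-231 sample, so that these differences rest on few reads.

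In HS578T no FLT1 difference passed. With siNRP1#5 FLT1 was at 0.22, 0.45 and 0.51 TPM against 0.15, 0.08 and 0.17 TPM in siNT, without overlap. The log2 difference of 1.76 (SE 0.91, adjusted p = 0.19) was called with no filter on low counts (1.77, adjusted p = 0.0172) and when only these 2 groups were fitted (1.74, adjusted p = 0.0152). These are the samples with MDA-MB-231 markers, and with the counts of the other cell lines taken off FLT1 differed by 2.04 (adjusted p = 0.152) at the siNT level and by 1.95 (adjusted p = 0.174) at that of the same treatment. With the shRNAs, shNT was at 0.49, 0.04 and 0.05 TPM, shNRP1#3 at 0.05 and 0.05 TPM and shNRP1#5 at 1.03, 0.16 and 0.1 TPM. Both overlapped shNT, with FLT1 differences of -2.49 (SE 1.17, adjusted p = 0.725) and 1.21 (SE 0.86, adjusted p = 0.437).

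The control cells differed as well, which bears on levels compared across siRNA and shRNA. In shNT against siNT, 14.4% of all genes tested passed for SUM159PT, 20.6% for MDA-MB-231 and 17.9% for HS578T, and 5 tests of members passed. In MDA-MB-231, KDR was higher in shNT by 2.52 on the log2 scale (SE 0.18, adjusted p = 1.52e-07), FLT1 by 1.50 (SE 0.32, adjusted p = 0.00277) and PGF by 0.90 (SE 0.27, adjusted p = 0.0226), and NRP1 was higher too, by 1.23 (SE 0.15). The PGF call was lost without shNT replicate 3 (0.82, adjusted p = 0.0801), siNT replicate 1 (0.76, adjusted p = 0.0951) or siNT replicate 2 (0.86, adjusted p = 0.0769). The FLT1 call was lost with limma on log2 TPM (1.08, adjusted p = 0.069). In HS578T PGF was higher in shNT, at 77.6, 78.3 and 85.4 TPM, by 1.19 (SE 0.27, adjusted p = 0.00766). In SUM159PT VEGFC was lower in shNT, with a log2 difference of -1.04 (SE 0.25, adjusted p = 0.0146), which without shNT replicate 1 kept its size at adjusted p = 0.0518. Limma on log2 TPM did not call this VEGFC difference (-0.87, adjusted p = 0.0539). The delivery, the selection and the culture time before harvest cannot be told apart in this contrast.

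Whether siNRP1#5 and shNRP1#5, of one target sequence, had the same effect was tested as an interaction. It passed in MDA-MB-231 for PGF (siNRP1#5 effect minus shNRP1#5 effect 2.44, SE 0.38, adjusted p = 0.000176), KDR (2.04, SE 0.25, adjusted p = 1.2e-05) and VEGFB (0.87, SE 0.18, adjusted p = 0.00159), in a contrast where 23.7% of all genes passed. For these 3 genes the call held under all 19 alternatives. NRP1 itself fell further with the siRNA there (interaction -3.83, SE 0.22). In SUM159PT, where 2.51% of genes passed, edgeR called no member, with 1 at an unadjusted p under 0.05, VEGFC (-1.3, SE 0.37, adjusted p = 0.0712), which DESeq2 (-1.29, adjusted p = 0.0217) and limma on TPM (-1.8, adjusted p = 0.0325) each called, as did edgeR without siNRP1#5 replicate 3 (-1.91, adjusted p = 0.0131). In HS578T, where 0.854% passed, edgeR called none, with 1 at an unadjusted p under 0.05, and DESeq2 and limma also called none.

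Whether a reagent acted alike in the 3 cell lines was tested with a quasi-likelihood F test. PGF differed for siNRP1#3 (log2 effects of -2.41 for SUM159PT, -0.47 for MDA-MB-231 and 0.77 for HS578T, adjusted p = 0.0142, with 3.42% of genes called) and for shNRP1#5 (2.65, -1.14 and 0.21, adjusted p = 0.00213, with 3.81% called). VEGFB differed for siNRP1#5 (-0.57, 0.36 and -0.62, adjusted p = 0.0321, with 18.2% called). For shNRP1#3, where 0.747% of genes passed, the edgeR test called no member and none had an unadjusted p under 0.05. Without replicate 1 of every group, PGF had adjusted p = 0.347 for siNRP1#3 and 0.247 for shNRP1#5, and without replicate 2 it had 0.0938 for siNRP1#3. VEGFB for siNRP1#5 had 0.16 without replicate 2 and 0.238 without replicate 3. VEGFA for siNRP1#3 (adjusted p = 0.0955) and for siNRP1#5 (adjusted p = 0.0565) did not pass, and passed when the replicate number was blocked (adjusted p = 0.0367 and 0.0214). VEGFC for siNRP1#5 (adjusted p = 0.0661) passed with that block (0.0226), with RLE scaling (0.0369) and without replicate 3 (0.00262).

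VEGFA transcripts were read as isoform percent, each transcript's share of the TPM of the gene. By mean over all samples the coding transcripts with the largest shares were VEGFA-206 (neither exon, 19.1%), VEGFA-205 and VEGFA-225 (exon 7 without exon 6a, 18.7 and 15%) and VEGFA-226 (both exons, 6.45%), and 9 transcripts reached 5% in at least 1 group. Summed by the exons printed above, transcripts with exon 7 and without exon 6a held 38 ± 1.81% in SUM159PT controls, 43.9 ± 4.48% in those of MDA-MB-231 and 33.7 ± 5.66% in those of HS578T (mean ± SD, n = 6). Those with both exons held 7.55 ± 1.25, 4.35 ± 1.7 and 11.8 ± 0.908%. The HS578T controls (10.4 to 13.2%) lay above the SUM159PT (6.23 to 9.67%) and MDA-MB-231 controls (2.23 to 6.98%), while the last 2 ranges overlapped. Transcripts with neither exon held 19.7 ± 5.04, 18.9 ± 4.1 and 20.9 ± 2.09%, and transcripts that are not protein coding 23.4 to 43% over all samples.

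**Figure D4:**
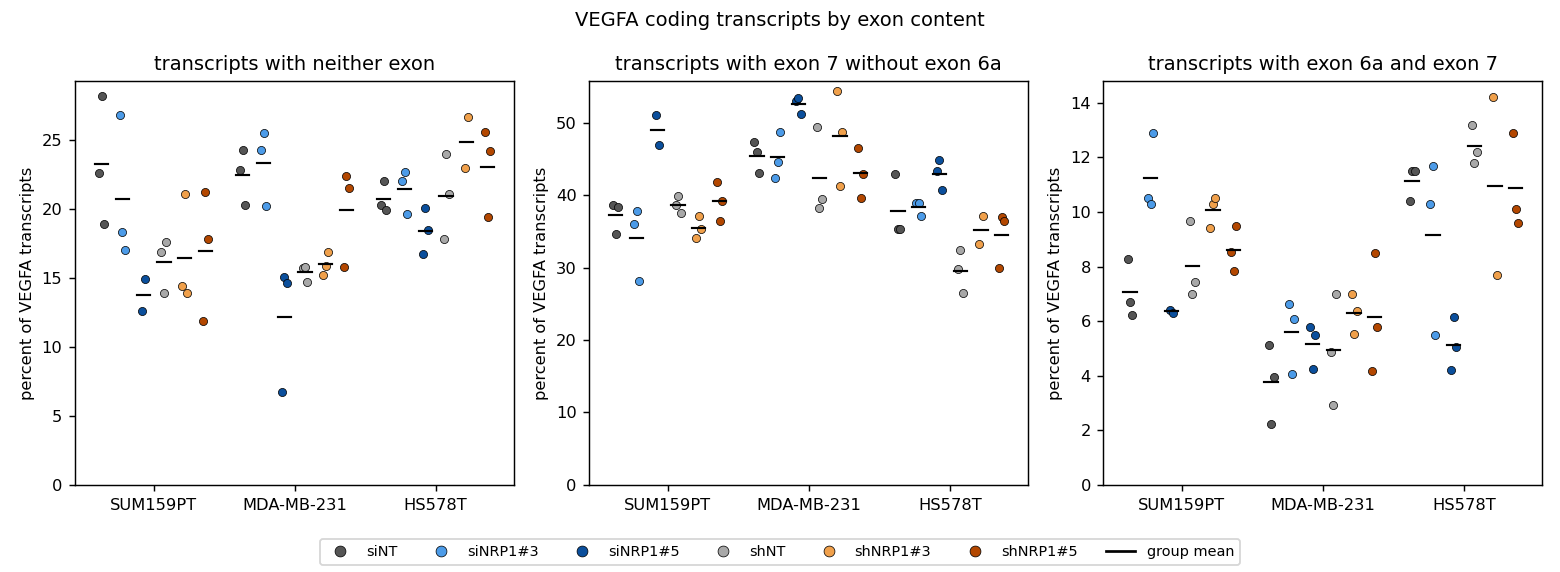
Percent of VEGFA transcripts, by isoform percent, that hold neither exon 6a nor exon 7, exon 7 without exon 6a, or both, in each sample (points, axes starting at 0) by cell line and treatment, with the group mean as a bar. The siNRP1#5 samples are at 47 to 51.1 in SUM159PT and 51.3 to 53.4 in MDA-MB-231 in the middle panel, and at 4.2 to 6.14 for both exons in HS578T.

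With siNRP1#5 the shares moved in each cell line, as a description without a test. In SUM159PT, exon 7 without exon 6a was at 47 and 51.1% against 34.6 to 38.7% in siNT, and neither exon at 12.6 and 14.9% against 18.9 to 28.2%. In MDA-MB-231 exon 7 without exon 6a was at 51.3 to 53.4% against 43.1 to 47.4% and neither exon at 6.72 to 15.1% against 20.3 to 24.3%. These siNRP1#5 and siNT samples did not overlap in either cell line. The share with neither exon was also lower in shNT than in siNT without overlap. It was at 13.9 to 17.6% in SUM159PT shNT and 14.7 to 15.8% in MDA-MB-231 shNT, so that this fall is not particular to siNRP1#5. Exon 7 without exon 6a, at 37.5 to 39.9% and 38.2 to 49.5% in these shNT groups, overlapped siNT. In HS578T, transcripts with both exons were at 4.2 to 6.14% against 10.4 to 11.5% in siNT, in the samples with MDA-MB-231 markers. MDA-MB-231 siNT was at 2.23 to 5.14% itself, and the part of MDA-MB-231 RNA in this share was not tested.

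The test of transcript usage (limma's diffSplice, which compares a transcript's change with the other transcripts of its gene) called few VEGFA transcripts. On simulated data with transcripts changed by 3 on the log2 scale in the SUM159PT siNRP1#3 contrast, 40.4% of its calls were false among 90611 transcripts, so that its calls are given beside limma on isoform percent (7.14% false, but 11% of the changes found). The changed transcripts were drawn from those with higher counts and a low spread, so that the share found may not hold for others. VEGFA-225 was called in SUM159PT siNRP1#5 (effect 4.48 on the log2 scale, adjusted p = 0.0104), where it held 22 and 19.34% against 0, 8.27 and 12.5% in siNT. Isoform percent gave 13.75 points and adjusted p = 0.202, and the diffSplice call was lost without replicate 1 (1.26, adjusted p = 0.803) or replicate 2 (5.64, adjusted p = 0.0819). VEGFA-226 was called in HS578T siNRP1#5 (-10.64, adjusted p = 0.00156), at 0% in all 3 samples against 2.38, 11.15 and 10.89%. Isoform percent gave -8.14 points and adjusted p = 0.322, and the call was lost without replicate 1 (-11.50, adjusted p = 0.0569) or replicate 3 (-9.87, adjusted p = 0.143).

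In MDA-MB-231 none of 52 tests of VEGFA transcripts over the 4 knockdown comparisons passed with diffSplice (4 at an unadjusted p under 0.05) or with isoform percent (3). Of all transcripts tested there, diffSplice called 1.94% for siNRP1#3, 1.08% for siNRP1#5, 0.384% for shNRP1#3 and 0.592% for shNRP1#5. In SUM159PT it called 0.484%, 1.37%, 0.125% and 0.359%, and in HS578T 0.65%, 1.05%, 0.131% and 0.275%. In shNT against siNT it called 1.26% for SUM159PT, 2.16% for MDA-MB-231 and 2.22% for HS578T. The 1 VEGFA call there was VEGFA-225 in SUM159PT (3.78, adjusted p = 0.0278, at 16.3, 16.04 and 12.81% in shNT), which isoform percent did not call (8.13 points, adjusted p = 0.482) and which was lost without replicate 1 (0.46, adjusted p = 1) or replicate 2 (5.23, adjusted p = 0.0899).

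Between cell lines diffSplice called 11% of transcripts for SUM159PT against MDA-MB-231, 16.7% for HS578T against MDA-MB-231 and 10.3% for HS578T against SUM159PT, and limma on isoform percent 7.61%, 14.8% and 8.68%. Among VEGFA transcripts 6 diffSplice calls were made, on VEGFA-205, VEGFA-225 and VEGFA-226. Of these, isoform percent called 1, VEGFA-226, higher in HS578T than in MDA-MB-231 by 6.43 points (adjusted p = 0.00209) and by a diffSplice effect of 2.65 (adjusted p = 0.000151). Without replicate 2 of every group the diffSplice effect was 0.77 (adjusted p = 0.443). VEGFA-226 is a transcript with both exons, the class that was highest in the HS578T controls.

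Over all genes, 11.3% of tests passed in the 12 knockdown comparisons, and the counts of the lists that follow stand beside that share. Of the genes around the pathway, co-receptors and further ligand (NRP1, NRP2 and VEGFD) gave 15 calls in 28 tests, all lower, 11 of them NRP1, whose fall is the purpose of the reagents. NRP2, a co-receptor for VEGFC, gave the other 4. It fell in all of the MDA-MB-231 comparisons but siNRP1#5, by 1.66 (siNRP1#3), 1.01 (shNRP1#3) and 1.52 (shNRP1#5) on the log2 scale, and in SUM159PT shNRP1#5 by 1.53. The genes that process VEGFC and VEGFD gave 10 calls in 56 tests (8 higher, 2 lower), 17.9%. CCBE1, a cofactor of that processing, rose with siNRP1#5 in MDA-MB-231 by 1.38 (SE 0.14), in HS578T by 0.73 (SE 0.24) and in SUM159PT by 3.77 (SE 0.91), and fell in MDA-MB-231 siNRP1#3 by 0.68 (SE 0.14). In the HS578T samples, CCBE1 was at 9.4 ± 1.51 TPM against 5.09 ± 0.481 in siNT (n = 3 each), beside 14 ± 4.07 TPM in MDA-MB-231 siNRP1#5. With the counts of the other cell lines taken off, CCBE1 rose by 0.98 (adjusted p = 0.014) at their siNT level, and the call was lost at that of siNRP1#5 (0.76, adjusted p = 0.0565). ADAMTS3, of the same list, rose in SUM159PT shNRP1#5 (1.64 against 0.75 TPM in shNT). It fell in MDA-MB-231 siNRP1#3 (0.287 against 0.55 TPM in siNT). In HS578T siNRP1#5, the samples with MDA-MB-231 markers, ADAMTS3 was called higher at 0.157 against 0.08 TPM in siNT. PCSK7, a proprotein convertase, rose in MDA-MB-231 by 0.66 (siNRP1#3) and 0.90 (siNRP1#5) and in SUM159PT siNRP1#3 by 1.09.

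The genes for VEGF-binding matrix and surface proteins gave 30 calls in 108 tests (9 higher, 21 lower), 27.8%. Of the 30, 21 were in MDA-MB-231 (36 tests), 7 in SUM159PT (36) and 2 in HS578T (36). Calls were also more common among all genes in MDA-MB-231, at 25.7% (siNRP1#3), 29.4% (siNRP1#5), 3.65% (shNRP1#3) and 20.7% (shNRP1#5). SDC1, a heparan sulfate proteoglycan of the cell surface, fell in 4 comparisons, by 2.35 in MDA-MB-231 siNRP1#5 and by 1.18, 1.11 and 1.26 in SUM159PT siNRP1#3, siNRP1#5 and shNRP1#5. HSPG2, a proteoglycan of basement membranes, fell in 4 too, among them MDA-MB-231 siNRP1#5 by 1.11 and shNRP1#5 by 1.13. CCN2, a matricellular protein that binds VEGFA, rose in 4 and fell in 1, and was highest in HS578T siNRP1#3 at 8.54-fold over siNT.

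Receptor signalling adaptors and phosphatases gave 24 calls in 120 tests (16 higher, 8 lower), 20%. CRK rose with both siRNAs in MDA-MB-231 (by 0.76 each) and in SUM159PT (by 1.25 and 1.22). PTPRJ, a phosphatase, fell in SUM159PT shNRP1#3 (0.583 against 1.76 TPM in shNT). It also fell in MDA-MB-231 shNRP1#3 and shNRP1#5 (24.5 and 18.1 against 34.8 TPM). In HS578T siNRP1#5, the samples with MDA-MB-231 markers, PTPRJ was called higher (9.11 against 7.45 TPM in siNT). MDA-MB-231 was at 22.4 TPM in siNT and 21 TPM in siNRP1#5. The part of MDA-MB-231 RNA in this PTPRJ rise was not tested. PTPRB, the vascular endothelial tyrosine phosphatase, rose in MDA-MB-231 by 0.77 (siNRP1#3) and 1.06 (siNRP1#5). PTPRB fell in MDA-MB-231 shNRP1#5 (2.2 against 2.66 TPM in shNT). With siNRP1#3 in HS578T it rose (0.0867 against 0.01 TPM), in samples with MDA-MB-231 markers at 2.43 to 7.13%. In HS578T it rose by 4.59 with siNRP1#5, from 0.01 ± 0.01 to 0.36 ± 0.231 TPM (n = 3 each), in the samples with MDA-MB-231 markers. MDA-MB-231 siNT was at 1.22 ± 0.0961 TPM (n = 3). With the counts of the other cell lines taken off, PTPRB rose by 4.6 (adjusted p = 0.000883) at their siNT level, and at that of siNRP1#5 the call was lost (2.77, adjusted p = 0.102).

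Oxygen-sensing regulators gave 17 calls in 96 tests (3 higher, 14 lower), 17.7%. HIF1AN, the asparagine hydroxylase that restrains hypoxia-inducible factors, fell in 5 comparisons, all with reagents numbered #5, with log2 differences of -2.15 and -1.2 in SUM159PT (siRNA and shRNA), -1.94 and -0.42 in MDA-MB-231 and -1.06 in HS578T siNRP1#5. EGLN3, a prolyl hydroxylase, rose with siNRP1#5 in MDA-MB-231 by 1.90, in HS578T by 3.32 and in SUM159PT by 1.95, and fell in the other 3 MDA-MB-231 comparisons (-1.2, -1.27 and -1.1). The HS578T rise of EGLN3 was from 0.33 ± 0.217 to 2.65 ± 1.42 TPM, beside 8.6 ± 2.23 TPM in MDA-MB-231 siNT and 28.7 ± 8.06 TPM in MDA-MB-231 siNRP1#5 (n = 3 each). With the counts of the other cell lines taken off, EGLN3 differed by 3.21 (SE 0.99, adjusted p = 0.0401) at their siNT level and by -7.06 (SE 2.03, adjusted p = 0.0353) at that of siNRP1#5, so that its direction there depended on the level assumed. Counts that would have gone below 0 were set to 0, so that the latter value is not a measured fall. EGLN1, another prolyl hydroxylase, fell with siNRP1#3 in MDA-MB-231 by 0.75 and in SUM159PT by 0.78.

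The 10 textbook HIF targets gave 26 calls in 120 tests (15 higher, 11 lower), 21.7%. In MDA-MB-231, 6 of the 10 rose with siNRP1#5 (median log2 difference 0.67 over the list, 0.01 over all genes) and 8 fell and 1 rose with shNRP1#5 (median -0.81, 0.02 over all genes), where 29.4% and 20.7% of all genes tested were called. KDM3A, a histone demethylase, rose by 0.68 and fell by 0.85 in these 2 comparisons, and ANKRD37 rose by 0.82 and fell by 0.68. ADM, the vasodilator adrenomedullin, rose in both, by 0.92 and 1.04, and in SUM159PT shNRP1#5 by 2.84. Beside them VEGFA differed by 0.26 (adjusted p = 0.591) with siNRP1#5 and by -0.78 (adjusted p = 0.107) with shNRP1#5. The SUM159PT siNRP1#3 samples, with the largest VEGFA fall, had 2 of the 10 called, both higher (ANKRD37 by 1.24 and KDM3A by 0.97), while the median over the list was -0.25 (-0.01 over all genes) and 8.66% of all genes were called.

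Angiopoietins and their receptors gave 6 calls in 36 tests (3 higher, 3 lower), 16.7%. TIE1, an endothelial receptor tyrosine kinase, was at 0.823 ± 0.511 TPM in MDA-MB-231 siNT and 6.64 ± 3.25 TPM in siNRP1#5 (n = 3 each), and its counts rose by 3.12 (SE 0.34, adjusted p = 1.82e-06), in the comparison in which KDR and FLT1 rose. In shNRP1#5 it rose by 1.04 and in shNRP1#3 it fell by 1.39. TIE1 was also called lower in SUM159PT shNRP1#3 and in HS578T shNRP1#5. ANGPT2, a ligand of the TIE2 receptor, was called in MDA-MB-231 siNRP1#5 at 0.177 ± 0.115 TPM, against 0 TPM in all siNT samples. It passed the filter on low counts in this cell line alone. Its means there were 0.00333 (siNRP1#3), 0.0433 (shNT), 0.0233 (shNRP1#3) and 0.123 TPM (shNRP1#5). A gene this low passes the filter only through the groups where it is highest, so that this call is not independent of the filter. The endothelial marker sum was 136 to 209 TPM in siNRP1#5 and 153 to 188 TPM in siNT. Over all MDA-MB-231 samples ESAM (57.2 to 169 TPM) and ROBO4 (17.7 to 76.8 TPM) gave most of it. That sum thus does not describe TIE1 or the other low markers.

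The genes most like each ligand, by Pearson's r of log2 CPM over the 18 group means after centring each cell line, among 13837 genes, were PRELID2 (0.82), PAQR5 (0.79) and QPCTL (0.79) for VEGFA and MPI (0.91), ARHGEF10L (0.89) and DEPP1 (0.88) for VEGFB. For VEGFC they were WFIKKN1 (0.74), SPP1 (0.72) and TNFSF15 (0.72), and for PGF CUEDC1 (0.84), TBXA2R (0.83) and ENSG00000288044 (0.82). The points share libraries and controls, and the values are a description.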

How the data were processed

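RNA of 52 samples was sequenced from stranded poly(A) libraries. The authors trimmed reads (Trim Galore 0.6.5, FastQC 0.11.9), aligned them to GRCh38 (STAR 2.7.2b) and quantified them with RSEM 1.3.3, per the submitters' processing notes. The deposited expected counts per gene and transcript are not scaled for depth. The deposited TPM are scaled for length and depth. The deposited isoform percent gives each transcript as a percent of the TPM summed over the gene. The authors removed 2 outlier samples before deposit, not analysed here. Totals ran from 25310443 to 72003442.

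Expected counts were rounded and fitted with edgeR 4.0.16 in R 4.3.3 (filterByExpr, TMM, glmQLFit robust, glmQLFTest), with 1 model per cell line of 6 groups, or of 18 groups over all samples, and Benjamini-Hochberg adjustment over all genes tested. Transcript usage used limma 3.58.1 (voom, diffSplice). Alternatives were RLE scaling, no filter, the replicate block, only the groups compared, a sample left out, DESeq2 1.42.0, limma on log2(TPM + 0.1), and counts of the other cell lines taken off (marker share above that of the controls, times their siNT level, or, chosen after seeing the data, the level of the same treatment). On simulated counts of 19397 genes for SUM159PT siNRP1#3, the test found 64.5% of 200 genes changed by 1.5 on the log2 scale, with 5.15% of calls false. The changed genes were drawn from those with higher mean counts. The share found thus does not cover members with few counts, such as FLT1 and KDR in HS578T. Reads had no molecular identifiers, and floors of 3 counts cover counting error only.

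The members and lists were chosen with earlier results of these data known. Up to 3 genes a list are named, those called in most knockdown comparisons, and the 3 genes most like each ligand.

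Same-numbered replicates deviated together (every correlation over 0.1) in SUM159PT siNRP1#3 and shNRP1#3, MDA-MB-231 siNRP1#5 and HS578T shNRP1#5 against their controls. The same held for the groups of 2 samples, SUM159PT siNRP1#5 (0.132 and 0.392) and HS578T shNRP1#3 (0.54 and 0.243). The numbers come from the labels and the pairing from this check alone. Differently numbered samples were not correlated for comparison, so that the check cannot show that the samples are paired.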

Additional observations from a re-analysis of the deposited data

Results flagged for a closer look

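In 6 results the effect of a reagent differed by a test of the difference itself. Across the 3 cell lines, PGF differed for siNRP1#3 (adjusted p = 0.0142, quasi-likelihood F test of edgeR) and for shNRP1#5 (adjusted p = 0.00213), and VEGFB for siNRP1#5 (adjusted p = 0.0321). In MDA-MB-231, the siNRP1#5 effect exceeded the shNRP1#5 effect by 2.44 for PGF, 2.04 for KDR and 0.87 for VEGFB on the log2 scale. In that cell line shNT was above siNT in KDR by 2.52 and in PGF by 0.90, so that the 2 effects start from unequal controls. The part of the unequal controls in these differences was not tested.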

How the results depend on the processing

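Calls of members per cell line were 10 for MDA-MB-231, 5 for SUM159PT and 1 for HS578T. Leaving out 1 sample gave 9 to 11, 3 to 5 and 0 to 1. HS578T had 3 with no filter on low counts, 4 with only the 2 groups compared and 3 with limma on TPM. The 5 calls of shNT against siNT became 8 with no filter and 3 with limma on TPM (4 to 6 with a sample left out). The 3 interaction calls became 5 with no filter and 5 with DESeq2 (3 to 5), and the 3 differences between cell lines 5 with no filter (1 to 3). The 15 calls between control cells were 14 to 15 with a replicate left out. VEGFA transcript calls with isoform percent were 0 in SUM159PT, 0 in HS578T, 0 for shNT and 3 between cell lines, against 1, 1, 1 and 6, and with a replicate left out they were 0 to 1, 0 to 1, 0 to 1 and 2 to 6 (MDA-MB-231 0 to 0).

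With the replicate number as a block, HS578T had 2 calls, the interaction 5, the differences between cell lines 6, and VEGFA transcripts 0 in SUM159PT, 0 for shNT and 3 between cell lines. Where same-numbered samples deviated together, the block changed no member's call other than VEGFB in SUM159PT siNRP1#3.

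Among tests of members, 113 kept direction and side with RLE scaling and 1 did not, and 109 did with DESeq2. With a sample left out 633 of 712 did. No called member turned in direction under any alternative. Uncalled log2 differences that turned with limma on TPM were VEGFC 0.12 (SUM159PT siNRP1#3), VEGFA 0.04 and VEGFB 0.03 (SUM159PT shNRP1#3), FLT1 0.22 (MDA-MB-231 siNRP1#3), VEGFA -0.09 (MDA-MB-231 siNRP1#5), KDR -0.05 (MDA-MB-231 shNRP1#5), VEGFA 0.15 (HS578T siNRP1#3), and VEGFA 0.16 and VEGFB -0.13 (HS578T interaction). KDR in MDA-MB-231 shNRP1#5 was -0.02 with no filter and 0 with only the 2 groups. FLT1 in HS578T against MDA-MB-231 was -0.06 with the block and -0.24 with shNT alone, and PGF in SUM159PT against MDA-MB-231 was 0.79 with siNT alone. With counts of the other cell lines taken off, at their siNT level or that of the same treatment (the latter chosen after seeing the data), the HS578T VEGFA interaction was 0.17 and 0.16, and KDR in HS578T siNRP1#5 was -0.12 at the latter. The cause was not tested.

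With a sample left out, the SUM159PT ranges that crossed 0 were PGF -1.24 to 0.38 and VEGFB -0.25 to 0.06 (shNRP1#3), VEGFC -0.11 to 0.10 (siNRP1#3) and -0.97 to 0.07 (siNRP1#5), and VEGFB -0.62 to 0.09 (interaction). In MDA-MB-231 they were KDR -0.05 to 0.11 (shNRP1#5), VEGFA -0.26 to 0.52 (siNRP1#5) and VEGFC -0.01 to 0.10 (shNT). In HS578T they were PGF -0.54 to 0.42, KDR -1.13 to 1.02 and VEGFB -0.62 to 0.15 (shNRP1#3), FLT1 -0.77 to 3.37, PGF -0.07 to 0.43 and KDR -1 to 0.34 (shNRP1#5), VEGFA -0.19 to 0.01 (siNRP1#3), FLT1 -1.61 to 2.52, VEGFA -0.26 to 0.20 and VEGFB -0.05 to 0.32 (interaction), and FLT1 -1.50 to 1.11, KDR -0.12 to 1.17 and VEGFC -0.20 to 0.23 (shNT). For HS578T against MDA-MB-231 they were FLT1 -0.91 to 0.40 and VEGFC -0.02 to 0.32. The called VEGFA-225 usage effect for SUM159PT against MDA-MB-231 ran from -2.90 to 0.14.

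FLT1, KDR in HS578T and FLT4 rest on few counts, and groups of 2 or 3 samples limit the tests of difference: on simulated data the interaction test found 5% of changed genes in SUM159PT, drawn from genes with higher counts.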
